A study of Mus musculus with 12 samples.

Results

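MC38 is a colon carcinoma line from the C57BL/6 mouse strain, and its A159V derivative carries a homozygous substitution of Rac1 that CRISPR editing placed at the gene's own locus. Cells of either genotype, wild type (WT) or A159V, were grown under the skin of C57BL/6 mice 6 to 8 weeks old, and the effect of blocking PD-1 on gene expression in the recovered tumor cells was the question in both. The comparison here was A159V tumor cells from mice given an antibody against PD-1 (anti-PD1, replicates 1, 2 and 3) versus A159V tumor cells from mice given an IgG isotype control (replicates 1, 2 and 5), 6 of the 12 samples, chosen by the genotype and treatment in their labels. Both reagents were injected into the abdomen at 100 μg every 3 days from day 3, and tumors were collected on day 13, so the samples show 1 time point and cells in which both alleles of Rac1 carry the change, and the study used clone 9 of its 3 A159V clones except where it names another, while the labels name none. Each sample came from its own mouse, and the tumor cells were enriched with a magnetic kit that removes other cells. In the study's methods, total RNA was extracted, as the labels also give, and the libraries were made after poly(A) selection.

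Rac1 is a small GTPase that passes signals from receptors to the actin cytoskeleton and to protein kinases. PD-1 is an inhibitory receptor on T cells, and antibodies that block it release T cells that recognise the tumor. The interferon-γ that such T cells secrete induces genes of antigen presentation, chemokines and the PD-1 ligand Cd274 in tumor cells.

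The 6 samples held 18470322 to 21949942 counts, with a median of 18881089, and 17724 to 18451 genes with at least 1 count. Levels are given as CPM, counts in proportion to library size, after scaling of the libraries by TMM, and log2 fold changes are anti-PD1 over IgG. A count of 0 allows up to 3 counts, or 0.144 to 0.167 CPM on this scale in these 6 libraries, which covers counting error only. Gene positions are from GENCODE M21 on mm10. Sequencing depth was similar in IgG replicate 5 (18470322 counts) and in the other 5 samples (18593377 to 21949942 counts).

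IgG replicate 5 stood apart from the other 5 A159V samples, so the treatment tests and the lists of related genes are given with it and without it. Most single genes are too, while most lists of cell-type markers are given as sums per sample. Pearson's r of log2 CPM, taken over 14340 genes that cannot count as replicates, was 0.972 with IgG replicate 1 and 0.973 with IgG replicate 2, and its r with the 3 anti-PD1 samples ran from 0.973 to 0.977. Every pair among the other 5 samples had an r of 0.987 to 0.992, so IgG replicates 1 and 2 were closer to each anti-PD1 sample than to their own group mate. In the principal components of the 500 most variable genes among the 6 samples, the first component held 51.7% of the variance, with IgG replicate 5 at 34.3 and the other 5 between −9.12 and −4.52. The second component held 19.3% and placed the anti-PD1 samples at −17.1, −4.79 and −0.0287, IgG replicates 1 and 2 at 9.70 and 11.1, and IgG replicate 5 at 1.11. This sample was the highest of the 6 for 3990 genes (27.8%) and the lowest for 4485 (31.3%), where each other sample was highest for 1289 to 2528 genes and lowest for 1029 to 2466.

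Measured against the mean of its group mates, IgG replicate 5 differed by more than 1 log2 unit at 1705 genes (11.9%), 592 higher and 1113 lower. The same count for each of the other 5 samples against its own group mates was 396 to 604, although IgG replicates 1 and 2 reached 604 and 575 with replicate 5 as 1 of their 2 mates. The median absolute difference was 0.33 log2 units for IgG replicate 5 and 0.14 to 0.22 for the others. No test applies to a single sample, and these values describe how far it lay from the rest.

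**Figure D1:**
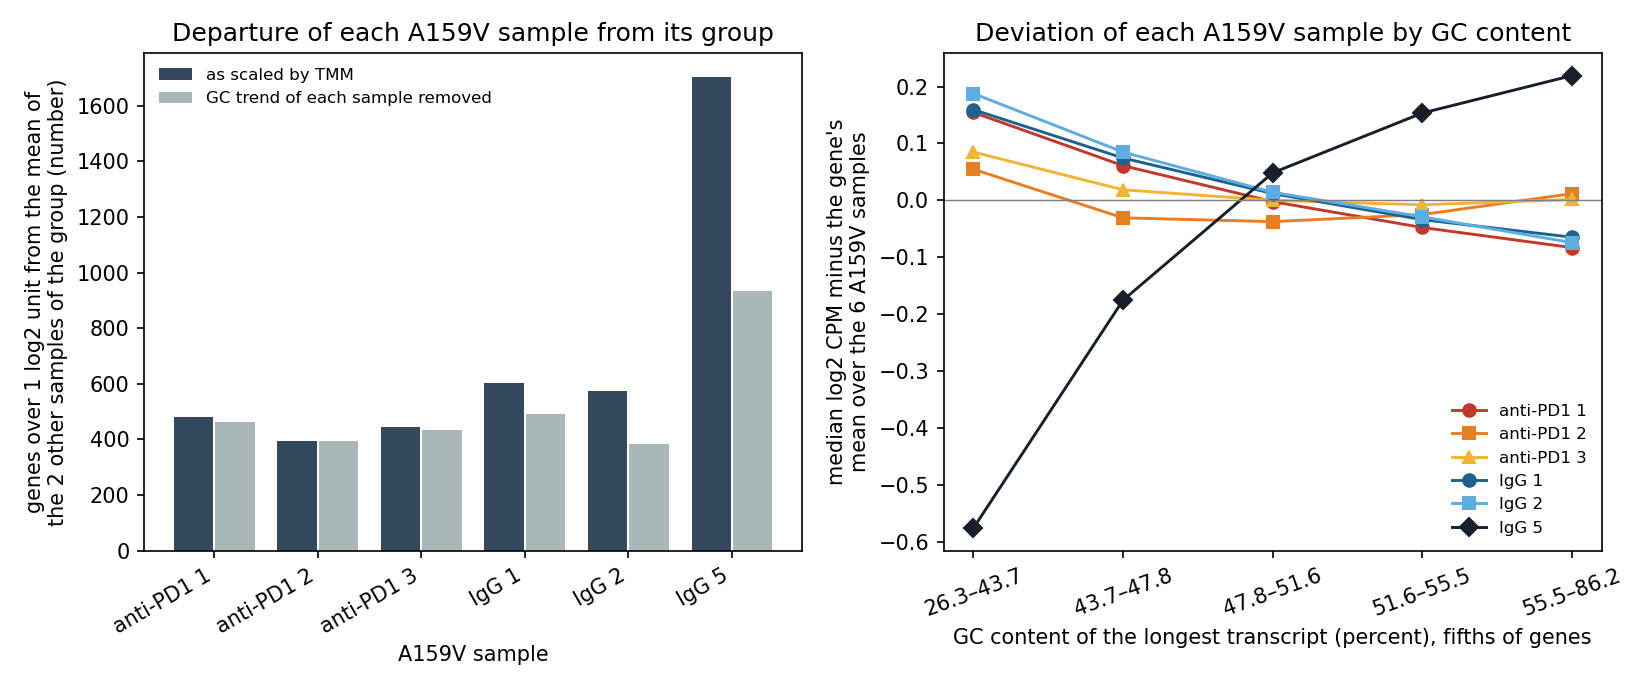
Left, number of genes more than 1 log2 unit from the mean of the 2 other samples of the group, for each A159V sample, as scaled by TMM (dark bars, 396 to 604 genes in 5 samples and 1705 in IgG replicate 5) and after removal of each sample's GC trend (light bars, 934 in IgG replicate 5). Right, median log2 CPM minus the gene's mean over the 6 samples, for genes in 5 equal groups by GC content in percent, 1 line per sample, with IgG replicate 5 running from −0.58 in the group with the least GC to 0.22 in the group with the most.

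The difference in IgG replicate 5 followed base composition. After the values were seen, genes were sorted by the GC content of their longest transcript, and across 14216 genes the departure of IgG replicate 5 had an r of 0.598 with GC content, against −0.497 to 0.10 for the other 5 samples. The lowest 2 of these, −0.423 and −0.497, were IgG replicates 1 and 2, which have replicate 5 as 1 of their 2 mates. In the fifth of genes with the least GC (26.3% to 43.7%), the median deviation of IgG replicate 5 from the mean of the 6 samples was −0.58, in the next −0.18, and then 0.05, 0.15 and 0.22 in the fifth with the most GC (55.5% to 86.2%). The 3704 genes with a mean of at least 5 CPM in which it lay below the other 5 samples had a median GC content of 43.6%, and the 3099 in which it lay above them had 54.9%, where all genes had 49.7%. Over all 12 samples of the series, the r between a sample's deviation and GC content was 0.543 in IgG replicate 5 and −0.168 to 0.109 in the other 11. When each sample's GC trend was removed, 934 genes of IgG replicate 5 still lay more than 1 log2 unit from its mates, against 385 to 491 in the other samples. The part of base composition in the departure was not tested further.

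Genes encoded in mitochondria were among those most reduced in IgG replicate 5. The 13 mitochondrial protein genes took 0.821% of its counts and 1.97% to 3.03% of the counts in the other 5 samples. For mt-Atp8 (chromosome M, 7766 to 7969) the levels were 162, 331 and 200.4 CPM with anti-PD1 and 274, 273 and 3.19 CPM with IgG, and for mt-Nd3 they were 115, 53.3 and 81.2 and 119, 162 and 5.74 CPM. The lone low value in each gene belonged to IgG replicate 5, −6.38 and −4.57 log2 units from its group mates, and mt-Atp8 shares exon sequence with mt-Atp6. Their log2 fold changes were 0.33 (95% interval −1.52 to 2.19) and −0.21 (−1.74 to 1.33) with all samples, and −0.21 and −0.73 without replicate 5, while mt-Atp8 was at −0.0195 without anti-PD1 replicate 2 and mt-Nd3 at 0.41 without IgG replicate 2.

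Nuclear genes far below their mates in this sample included several from families of closely related copies, so the share of each copy is uncertain. Zfp534 (chromosome 4, 147673502 to 147702553), a zinc finger gene, measured 23.4, 28.6 and 23.1 CPM with anti-PD1 and 24.7, 26.1 and 1.33 CPM with IgG, and Zfp988, another zinc finger gene of chromosome 4, measured 39.9, 42.5 and 37.7 and 39.2, 38.1 and 3.03 CPM. In both, 5 samples lay close together and IgG replicate 5 lay −4.15 and −3.63 log2 units below its mates. Gm10058, Gm4836, Gm10096 and Gm10147, 4 genes of chromosome X with almost equal values, lay between −3.82 and −3.66 log2 units from the mates. At the other end, Malat1 (chromosome 19, 5795690 to 5802672), an abundant nuclear noncoding RNA, measured 208, 173 and 87.8 CPM with anti-PD1 and 60.5, 67.8 and 250.4 CPM with IgG. IgG replicate 5 was the highest of the 6 for Malat1, anti-PD1 replicates 1 and 2 were next, and its fold change was 0.31 (−0.73 to 1.35) with replicate 5 and 1.32 (0.53 to 2.10) without it, or −0.0271 without IgG replicate 1. The histone methyltransferase genes Kmt2d and Kmt2a and the long genes Syne2 and Dst had the same order at the top, with IgG replicate 5 at 215, 157, 146 and 395 CPM against 50.1 and 65, 48.1 and 57.3, 38.9 and 56.2, and 125 and 142 CPM in replicates 1 and 2. The heat shock genes Hspa1a and Hspa1b, which are near-identical copies, were also highest there, 2.11 and 1.91 log2 units above the mates.

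The samples carried few transcripts of immune cells. The 20 T cell markers together summed to 2.29, 1.97 and 1.95 CPM with anti-PD1 and 1.53, 1.78 and 1.81 CPM with IgG, and 11 of them were at or under 3 counts in all 6 samples. Anti-PD1 values were all above IgG values in that sum and edgeR placed 0 of the 13 tested T cell genes at an unadjusted p under 0.05. Without IgG replicate 5, or without anti-PD1 replicate 2, 1 gene was higher at that limit. The median log2 fold change was 0.07 with all samples, −0.11 without IgG replicate 1 and 0.41 without anti-PD1 replicate 3. Genes such as Cd8a and Trbc2 had 0 or 1 count per A159V sample and entered the test through WT samples, so for them it could not show a change. The median with all samples is the value of Cd8a itself, so these medians give no measure of a shift in A159V cells. Outside this list, 2 T cell receptor segments with almost equal counts were lower with anti-PD1. Trav15n-1 measured 1.80, 3.56 and 3.23 CPM with anti-PD1 and 4.07, 13.4 and 6.70 CPM with IgG, wholly lower, with a log2 fold change of −1.49 (−2.42 to −0.56) and −1.58 without IgG replicate 5, and Trav15d-1-dv6d-1 was at −1.49 and −1.57. Counts this alike leave the share of each uncertain. Macrophage and monocyte markers summed to 73.1, 72.3 and 75.5 CPM and 72.9, 62.6 and 89.8 CPM, with Cd68 as the most abundant and IgG replicates at both ends of the range. Of the 14 natural killer and cytotoxic cell markers, 9 were at or under 3 counts in all 6 samples. The 14 together gave 35, 31.9 and 37 CPM and 38.3, 38.4 and 41.5 CPM, with every anti-PD1 sum below the IgG sums. Eomes held most of it with overlapping groups, while Ccl5, described below, had 11.6, 13 and 12.1 CPM with anti-PD1 and 15.8, 15.1 and 17.4 CPM with IgG, and the general leukocyte markers gave 64.4, 56.2 and 57.4 CPM and 58.6, 57.1 and 47.6 CPM, most of it Lcp1. Ptprc, which marks leukocytes, had 0 to 5 counts per sample.

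The remaining marker lists follow, and the values do not show which cells the transcripts came from. B cell markers summed to 13.2, 13.6 and 15.3 and 13.3, 14.9 and 14.5 CPM, dendritic cell markers to 16.5, 17.3 and 17.1 and 14.8, 15.5 and 17.2 CPM, neutrophil markers to 5.45, 8.61 and 7.57 and 9.73, 12.1 and 7.17 CPM, and endothelial markers to 22.9, 21.2 and 23.6 and 22.6, 19.5 and 21.5 CPM. Pericyte markers reached 23.8, 19.5 and 24.6 and 24.7, 22.9 and 24.1 CPM, erythroid markers 5.34, 5.47 and 6.34 and 7.03, 6.05 and 8.98 CPM, and skeletal muscle markers 11.8, 8.56 and 11.1 and 8.62, 18.7 and 9.78 CPM. The groups overlapped in each of these 7 sums. Adipocyte markers summed to 6.16, 9.09 and 8.01 and 7.24, 9.84 and 10.8 CPM, and keratinocyte markers to 2.29, 1.75 and 1.78 and 1.59, 2.45 and 1.75 CPM. Of the 17 colon and epithelial markers, Slc3a2 held almost the whole sum (505, 545 and 541 CPM with anti-PD1, 614, 540.0 and 582 CPM with IgG), Epcam had 1 count in 1 sample, and Krt8, Krt18, Krt19 and Cdh1 had at most 11 counts in any sample. Fibroblast markers summed to 1898, 2555 and 2339 and 2515, 3841 and 4617 CPM, mainly Fn1 at 1634, 2261 and 1989.7 and 2246, 3525 and 4368 CPM, a gene with overlapping groups and a log2 fold change of −0.78, or −0.52 without IgG replicate 5. Of the 12 fibroblast markers 8 were higher with anti-PD1, with a median of 0.57 (0.77 without IgG replicate 5, 0.37 without IgG replicate 1 and 0.12 without anti-PD1 replicate 3), and 3 were higher and 0 lower at an unadjusted p under 0.05 by edgeR, all with an adjusted p of 1. With 1 sample left out, 1 or 2 markers were higher and 0 or 1 lower at that limit. The 3 were Col1a1 (1.03), Fap (0.89, or 1.09 without IgG replicate 5), which did not overlap at 2.12, 2.13 and 1.78 and 1.22, 0.720 and 1.33 CPM, and Pdpn (1.79, or 1.56), at 1.58, 0.372 and 1.84 and 0.476, 0.384 and 0.213 CPM with anti-PD1 replicate 2 inside the IgG range. Of the sex-linked markers, Xist measured 1.09, 1.17 and 0.946 CPM with anti-PD1 and 0.687, 0.576 and 0.425 CPM with IgG without overlap, and the 4 genes of the Y chromosome were at or under 3 counts in all 6 samples. In bulk RNA, fewer cells of a type and less RNA per cell cannot be told apart.

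Rac1 (chromosome 5, 143503634 to 143528036), the edited gene, measured 378, 334 and 404 CPM with anti-PD1 and 456, 458 and 345 CPM with IgG. IgG replicates 1 and 2 were the highest 2 of the 6 samples and IgG replicate 5 was within the anti-PD1 range, so the groups overlapped. The log2 fold change was −0.17 (−0.49 to 0.15) with all samples and −0.27 (−0.56 to 0.02) without replicate 5. The counts do not separate the edited from the unedited sequence.

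No gene passed the test of treatment in A159V cells. edgeR's quasi-likelihood test, fitted to all 12 samples so that the 4 groups shared 1 estimate of the spread, called 0 of 14340 genes (0%), where a call needed an adjusted p under 0.05 together with a log2 fold change beyond 0.3 in either direction. The smallest adjusted p was 1, and at an unadjusted p under 0.05 anti-PD1 was higher in 361 genes (2.52%) and lower in 160 (1.12%). Leaving out IgG replicate 5 gave 0 of 14729 genes (0%) by the same test, a smallest adjusted p of 0.608, and 829 genes higher (5.63%) and 179 lower (1.22%) at an unadjusted p under 0.05. Of the 521 genes under that limit with all samples, all 521 kept their direction without replicate 5 and 301 (57.8%) were again under the limit, which is 29.9% of the 1008 found without it. The count of 521 became 326 without anti-PD1 replicate 1 and 342 without anti-PD1 replicate 2. limma voom called 0 genes and had 549 at an unadjusted p under 0.05, and edgeR on the 6 A159V samples alone called 0 of 13266 and had 486.

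Of the 3 tools, DESeq2 called genes. On all 12 samples it called 2, Apol6 and 3110039I08Rik, and it had 612 genes at an unadjusted p under 0.05. On the 6 A159V samples it called 1 and had 506 under the unadjusted limit.

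The intervals show what size of effect the design could leave unseen. The 95% interval of the log2 fold change lay within a 2-fold change either way for 11072 of the 14340 genes (77.2%), within a 1.5-fold change for 7306 (50.9%) and within 0.3 for 388 (2.71%). The share within a 2-fold change was 5.87% for genes under 1 CPM, 64.0% from 1 to 10 CPM, 95.9% from 10 to 100 CPM and 97.7% over 100 CPM. The median distance from the estimate to either end of the interval was 0.44. Without replicate 5, 10870 of 14729 genes (73.8%) had an interval within a 2-fold change.

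In 647 genes (4.51%) the 3 anti-PD1 values all lay above the 3 IgG values, and in 932 (6.5%) they all lay below. Groups of 3 and 2 separate more often than groups of 3 and 3 by construction, and against IgG replicates 1 and 2 alone the 3 anti-PD1 values were all above for 2010 genes and all below for 2706. The median log2 fold change over all genes tested was 0.00 with replicate 5 and 0.01 without it, with 7311 genes higher and 7021 lower in the first case.

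Apol6 (chromosome 15, 77044729 to 77057106), an apolipoprotein L family gene, measured 8.44, 4.62 and 5.67 CPM with anti-PD1 and 1.69, 2.64 and 2.71 CPM with IgG. All 3 anti-PD1 samples were above all 3 IgG samples. The log2 fold change was 1.41 with a standard error of 0.28 and a 95% interval of 0.81 to 2.01, edgeR's adjusted p was 1, and the value without replicate 5 was 1.55 (0.87 to 2.23). Some exon sequence of Apol6 overlaps Mb, and the strand used in counting was not stated. 3110039I08Rik (chromosome 9, 41327077 to 41716994), a long noncoding RNA gene, measured 48.8, 91.8 and 32.4 CPM and 19.2, 17 and 23.5 CPM. The groups did not overlap, anti-PD1 replicate 2 was the highest, and the fold change was 1.53 (0.87 to 2.20) with replicate 5 and 1.71 (0.92 to 2.49) without it. Its span holds 3 other annotated genes with shared exon sequence, so some of these counts may belong to them.

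Luc7l3 (chromosome 11, 94287890 to 94321988), which encodes a splicing factor, measured 157, 188 and 134 CPM with anti-PD1 and 117, 106 and 81.1 CPM with IgG. IgG replicate 5 had the lowest level of the 6 and the groups did not overlap. The log2 fold change was 0.65 (0.31 to 0.99) with replicate 5 and 0.55 (0.22 to 0.87) without it. Among the other genes with the smallest p on the higher side, Pla2g4c, a phospholipase gene, measured 4.20, 4.04 and 2.50 and 2.01, 1.78 and 1.70 CPM, and the noncoding RNA gene Ftx measured 15.3, 20.8 and 14.5 and 9.68, 11 and 9.67 CPM. Neither had overlapping groups, and their fold changes were 0.97 and 0.74 with replicate 5 and 0.95 and 0.74 without it. Far2 was also in this group by its p, at 4.74, 3.51 and 1.28 and 0.952, 1.34 and 1.01 CPM, although anti-PD1 replicate 3 fell inside the IgG range.

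On the lower side, Bbs2 (chromosome 8, 94067954 to 94098928), which encodes a subunit of a complex that carries proteins to the cilium, measured 16.6, 23.9 and 24.7 CPM with anti-PD1 and 30.7, 42.4 and 42.4 CPM with IgG. All 3 anti-PD1 samples lay below all 3 IgG samples. The log2 fold change was −0.82 (−1.23 to −0.42) with replicate 5 and −0.72 (−1.15 to −0.29) without it. Jup (chromosome 11, 100368958 to 100397763), the gene of the junction protein plakoglobin, measured 26.4, 27.7 and 27.7 CPM and 36.4, 40.9 and 42.8 CPM. The 3 anti-PD1 values spanned less than 2 CPM and lay below the 3 IgG values, with a fold change of −0.55 (−0.89 to −0.22) and −0.47 (−0.83 to −0.11) without replicate 5. Slc5a4a, a sugar transporter gene, measured 25.1, 23.6 and 29.5 CPM and 35.3, 47.5 and 43.2 CPM, again without overlap. Its fold change was −0.69 (−1.17 to −0.21), or −0.64 without replicate 5, and a close paralog lies nearby, so part of its counts may be misassigned.

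By p, Trp53i11, Txnip, Dpf2 and Tob2 also ranked within the first 12 on the lower side. Their fold changes were −0.82, −0.51, −0.37 and −0.40 with replicate 5 and −0.65, −0.33, −0.31 and −0.40 without it. For Txnip, a regulator of glucose uptake, the levels were 16.9, 17.1 and 15.5 CPM with anti-PD1 and 17.2, 25.1 and 28.2 CPM with IgG, with IgG replicate 1 just above the anti-PD1 range. Dpf2, a chromatin remodelling subunit, measured 102, 118 and 117 and 139, 145 and 151 CPM, and all anti-PD1 values were lower.

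**Figure D2:**
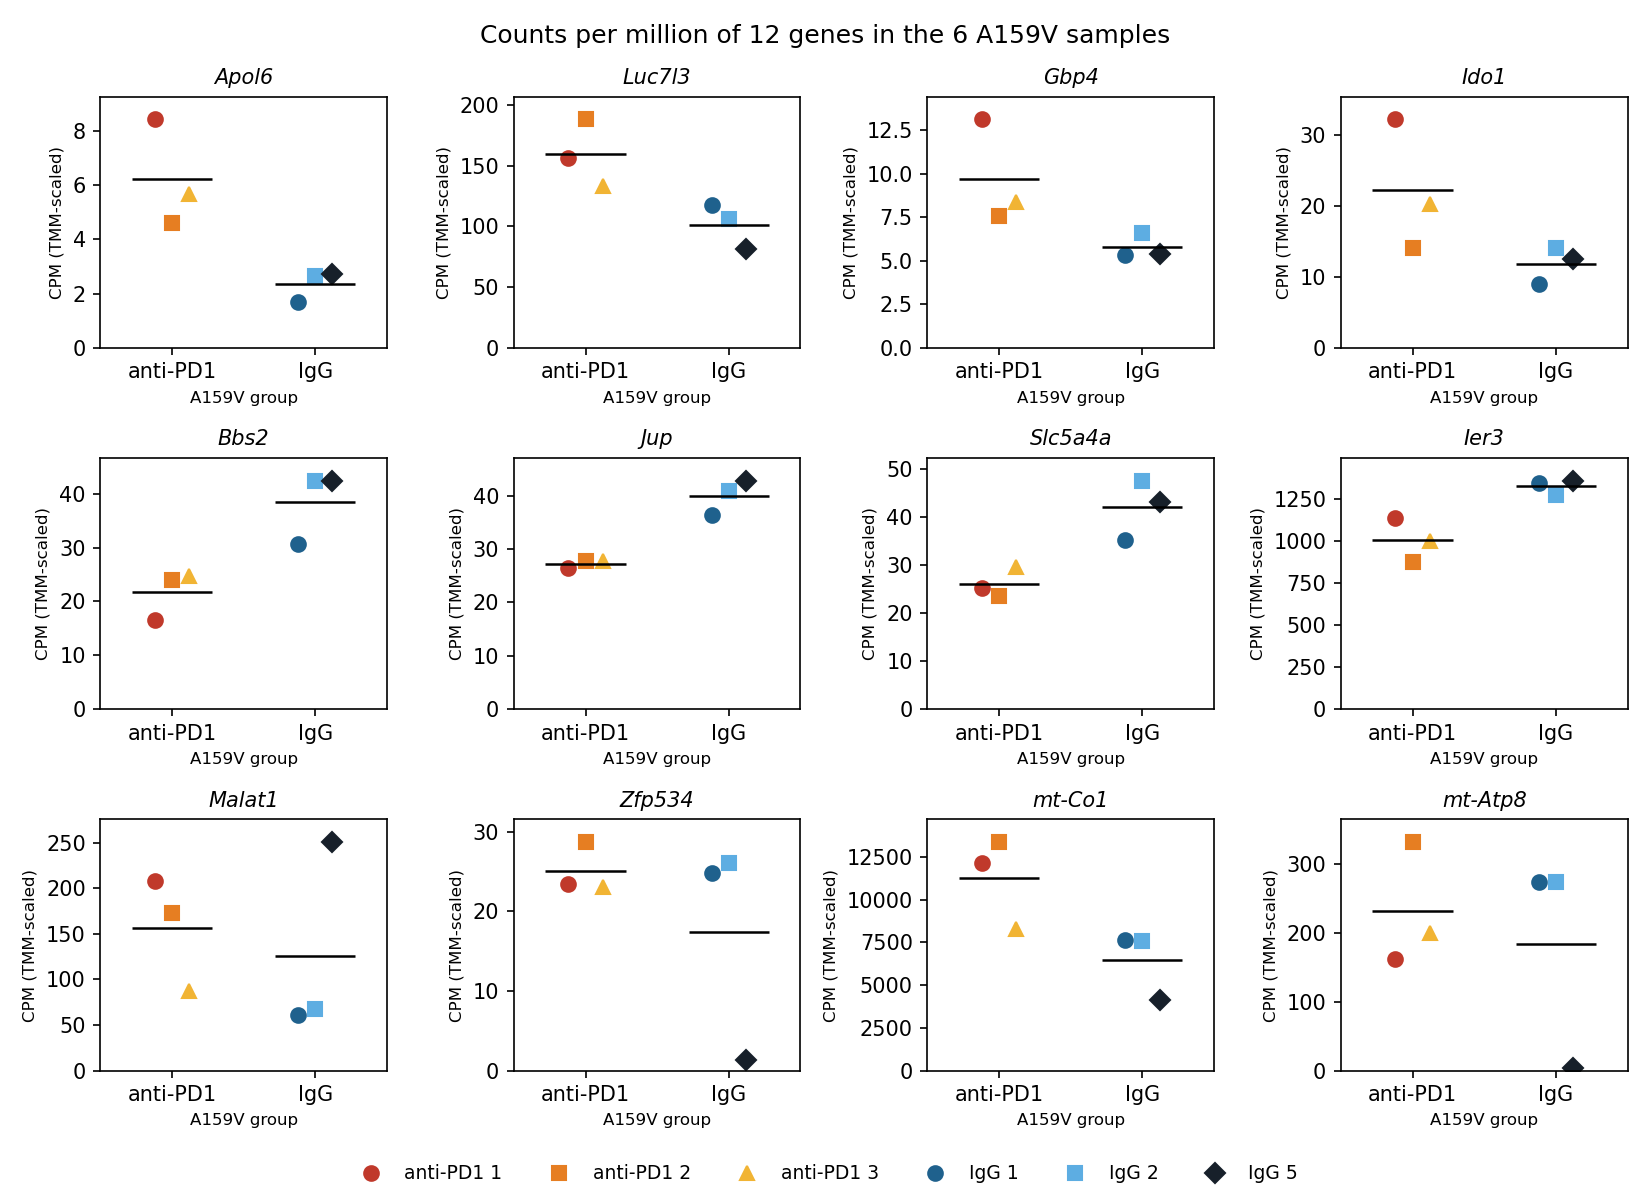
CPM after TMM scaling (vertical axes, linear, from 0) of 12 genes in the 3 anti-PD1 and 3 IgG samples of A159V cells, with 1 symbol per sample and lines at the group means. Apol6, Luc7l3, Gbp4, Ido1 and mt-Co1 have all anti-PD1 values above IgG, Bbs2, Jup, Slc5a4a and Ier3 have all below, and in Zfp534 and mt-Atp8 the symbol of IgG replicate 5 lies near 0.

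Without IgG replicate 5, other genes came to the front. Fendrr, a long noncoding RNA gene, measured 32.7, 39.6 and 23 CPM with anti-PD1 and 14.5, 15.4 and 36 CPM with IgG. IgG replicates 1 and 2 were the lowest 2 samples and replicate 5 was inside the anti-PD1 range, so the fold change was 0.53 (−0.11 to 1.18) with it and 1.12 (0.67 to 1.57) without it. Mid1, a ubiquitin ligase gene, had the same arrangement at 494, 586 and 379 and 301, 246 and 530.0 CPM, with fold changes of 0.44 and 0.86. Mid1 lies at the end of chromosome X, where its exons overlap other annotated genes. Col9a3 measured 2.67, 3.35 and 1.72 and 0.740, 0.864 and 3.03 CPM, with 0.75 and 1.71. On the lower side, Prcp measured 31.6, 31.5 and 33.6 CPM with anti-PD1 and 44.1, 46.5 and 31.2 CPM with IgG, and replicate 5 lay just below the anti-PD1 samples, away from its mates. Its fold change was −0.33 (−0.66 to −0.01) with replicate 5 and −0.46 (−0.70 to −0.22) without it. edgeR's adjusted p was 0.608 for each of Fendrr, Mid1, Col9a3 and Prcp in that fit.

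Shifts too small to pass the test gene by gene were described with lists of related genes, each list set beside all genes tested (7311 higher and 7021 lower, median 0.00, and 0.01 without replicate 5, with 4.51% wholly above and 6.5% wholly below the IgG values). Where 2 medians are joined by "to" in parentheses, they are the lowest and highest over the same genes when each A159V sample was left out in turn, with the sample named. At an unadjusted p under 0.05 by edgeR, 2.52% of all genes were higher and 1.12% lower, or 5.63% and 1.22% without replicate 5. Counts of list genes at that limit are to be read beside these shares. The lists were not tested as sets, and their genes are not independent. For the interferon-γ response list, the median deviation of its genes from their mean over the 6 samples was 0.30, −0.07 and 0.11 in the anti-PD1 samples and −0.13, −0.05 and −0.12 in the IgG samples. Anti-PD1 replicate 1 was the highest and anti-PD1 replicate 2 lay within the IgG range. Of its 34 genes, 29 were higher with anti-PD1 and 5 lower, 6 were higher at an unadjusted p under 0.05 and 0 lower, and 5 lay wholly above and 1 wholly below the IgG values. The median log2 fold change was 0.19 with replicate 5 and 0.23 without it, where 30 genes were higher. It was 0.0956 without anti-PD1 replicate 1 and 0.29 without anti-PD1 replicate 2, the ends of the range when 1 A159V sample was left out. edgeR called 0 of them at the adjusted limit, with and without replicate 5.

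Gbp4 (chromosome 5, 105115767 to 105139586), a guanylate-binding protein gene, measured 13.1, 7.55 and 8.40 CPM with anti-PD1 and 5.34, 6.58 and 5.37 CPM with IgG. Anti-PD1 replicate 1 was the highest and all 3 anti-PD1 samples were above the IgG samples. The log2 fold change was 0.75 (0.29 to 1.21) with replicate 5 and 0.73 (0.21 to 1.24) without it, and the gene shares exon sequence with Gbp8 and Gbp9 and has close paralogs. Igtp, an interferon-induced GTPase gene, measured 187, 145 and 155 and 128, 119 and 112 CPM without overlap, with fold changes of 0.44 (0.08 to 0.80) and 0.43. For Ido1 (chromosome 8, 24584136 to 24597009), which encodes an enzyme that breaks down tryptophan, the levels were 32.1, 14.1 and 20.2 CPM with anti-PD1 and 8.94, 14 and 12.5 CPM with IgG. Anti-PD1 replicate 2 was just above IgG replicate 2 and the groups did not overlap, and the fold change was 0.90 (0.10 to 1.71) with replicate 5 and 0.98 (0.03 to 1.92) without it. Iigp1 measured 127, 89.1 and 96 and 70.0, 89.2 and 36.6 CPM with overlap at IgG replicate 2, and its fold change went from 0.67 to 0.42 when replicate 5, the lowest sample, was left out.

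Cxcl10, Irf1 and Cxcl9, further interferon-γ targets, had overlapping groups. Cxcl10 measured 622, 596 and 631 CPM with anti-PD1 and 639.6, 608 and 555 CPM with IgG, with a fold change of 0.04 (−0.42 to 0.50) or 0.01 without replicate 5. Irf1 measured 295, 224 and 214 and 190.0, 239 and 265 CPM, with 0.08 (−0.28 to 0.43) and 0.22, or −0.08 without anti-PD1 replicate 1. Cxcl9 was higher in anti-PD1 replicates 1 and 3 (37.9, 13.2 and 26.7 CPM) than in each IgG sample (14.3, 24 and 10.5 CPM), with anti-PD1 replicate 2 inside the IgG range, and its interval of −0.12 to 1.46 included 0.

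Among the 15 genes of the interferon-γ receptor and JAK-STAT list, 10 were higher and 5 lower, 0 passed the unadjusted limit in either direction (1 without replicate 5), and the median was 0.08 with replicate 5 and 0.01 without it (0.01 without anti-PD1 replicate 1 to 0.10 without IgG replicate 2). Ifngr1, the receptor subunit that binds the ligand, measured 28.5, 28.1 and 31.8 CPM with anti-PD1 and 30.6, 32.9 and 31 CPM with IgG. The groups overlapped, and the fold change was −0.10 (−0.36 to 0.17) with replicate 5 and −0.08 (−0.35 to 0.20) without it. Ifngr2 measured 25.6, 25.7 and 30.8 and 32.8, 31.9 and 30.8 CPM, all anti-PD1 values just below the IgG values, with −0.22 (−0.55 to 0.11) and −0.21.

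The type I interferon-stimulated list had 35 of 40 genes higher and 5 lower, 1 higher and 0 lower at an unadjusted p under 0.05, and 4 genes wholly above the IgG values. Its median deviation per sample was 0.11, 0.11 and 0.03 with anti-PD1 and 0.08, −0.09 and −0.13 with IgG, and IgG replicate 1 fell inside the anti-PD1 range. The median log2 fold change was 0.15 with replicate 5 and 0.12 without it (0.10 without anti-PD1 replicate 1 to 0.21 without IgG replicate 1), where 5 genes were higher at the unadjusted limit. Ifi203 measured 183, 169 and 141 CPM with anti-PD1 and 133, 127 and 61.8 CPM with IgG, without overlap but with replicate 5 well below the rest. Its fold change was 0.62 (0.11 to 1.13) with that sample and 0.37 (0.03 to 0.72) without it, and it shares exon sequence with Mndal. Zbp1, a sensor of nucleic acids, measured 375, 345 and 325 and 312, 252 and 301 CPM, wholly separated, with 0.27 (−0.01 to 0.56) and 0.34.

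The MHC class I and peptide loading list had 16 of 23 genes higher, 0 at the unadjusted limit in either direction (2 higher without replicate 5), and a median of 0.09 with replicate 5 and 0.15 without it, or 0.0338 without IgG replicate 1, 0.0565 without anti-PD1 replicate 1 and 0.0384 without anti-PD1 replicate 3. H2-Q7 was the 1 member without overlap between the groups, and as a class I gene with close paralogs its counts are uncertain. The MHC class II list had 7 of 9 genes higher, none without overlap, and medians of 0.11 and 0.24, or 0.23 without IgG replicate 2, and 0.29 and 0.0595 without anti-PD1 replicates 2 and 3. Its per-sample deviations of 0.33, −0.36 and 0.30 with anti-PD1 and −0.22, 0.06 and 0.05 with IgG put anti-PD1 replicate 2 below every other sample.

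Chemokine ligands attract leukocytes. In the CC list, 7 of 10 tested genes were higher and 3 lower, 2 were higher and 0 lower at the unadjusted limit, 4 lay wholly above and 2 wholly below, and the median was 0.29. Over the same 10 genes it was 0.22 without IgG replicate 5, and 0.17 to 0.43 when any 1 A159V sample was left out. Those fits also admitted 2 more CC genes, and over all 12 the median was −0.01 without IgG replicate 5, where 2 were higher and 1 lower at the unadjusted limit, 0.01 without IgG replicate 1, and −0.03 and 0.13 without anti-PD1 replicates 2 and 3. Ccl8 measured 1.63, 1.59 and 2.06 CPM with anti-PD1 and 1.22, 0.672 and 1.01 CPM with IgG, with no overlap at these low levels, a fold change of 0.87 (0.13 to 1.61), and 0.93 without replicate 5. Ccl5 went the other way at 11.6, 13 and 12.1 and 15.8, 15.1 and 17.4 CPM, also without overlap, with −0.40 (−1.13 to 0.34) and −0.31. Ccl2, which attracts monocytes, measured 189.7, 200.5 and 191 and 151, 265 and 154 CPM, with IgG replicates on both sides of the anti-PD1 values and a fold change of 0.03 (−0.48 to 0.53), or −0.07 without replicate 5. The CXC, CX3C and XC list had 7 of 10 genes higher, 0 at the unadjusted limit in either direction, and medians of 0.48 and 0.17, or 0.23 without anti-PD1 replicate 1 and 0.0744 over genes with at least 10 counts in every sample, its lowest sample being IgG replicate 5 with a deviation of −0.76.

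For the PD-1 axis, Cd274, the gene of the PD-1 ligand, measured 77.4, 43.3 and 45 CPM with anti-PD1 and 48.5, 45.2 and 41.3 CPM with IgG. Anti-PD1 replicate 1 was the highest and the other 5 samples lay close together, so the groups overlapped. The log2 fold change was 0.30 (−0.17 to 0.76) with replicate 5 and 0.27 (−0.25 to 0.78) without it, or −0.0287 without anti-PD1 replicate 1. Pdcd1, the receptor gene, was low at 0.272, 0.532 and 0.334 and 0.635, 0.768 and 0.266 CPM, with −0.55 (−1.76 to 0.66) and −0.84, and Pdcd1lg2 had too few counts to be tested. The median of the 2 tested genes was −0.13 with replicate 5 and −0.29 without it (−0.29 without IgG replicate 5 to 0.03 without IgG replicate 2). The list of checkpoint and immune evasion ligands had 10 of 22 genes higher and 12 lower, with 1 higher and 2 lower at the unadjusted limit, 1 higher and 0 lower without replicate 5, and medians of −0.04 with and, over the same genes, −0.09 without replicate 5 (−0.09 without IgG replicate 5 to 0.01 without anti-PD1 replicate 2). Lgals9, the galectin 9 gene, measured 131, 123 and 137 and 166, 154 and 159.5 CPM and Tgfb1 measured 116, 109 and 121 and 133, 143 and 142 CPM. Both had all anti-PD1 values below the IgG values, with fold changes of −0.29 (−0.56 to −0.02) and −0.27 (−0.50 to −0.04), or −0.26 (−0.54 to 0.02) and −0.23 (−0.46 to 0.00) without replicate 5.

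**Figure D3:**
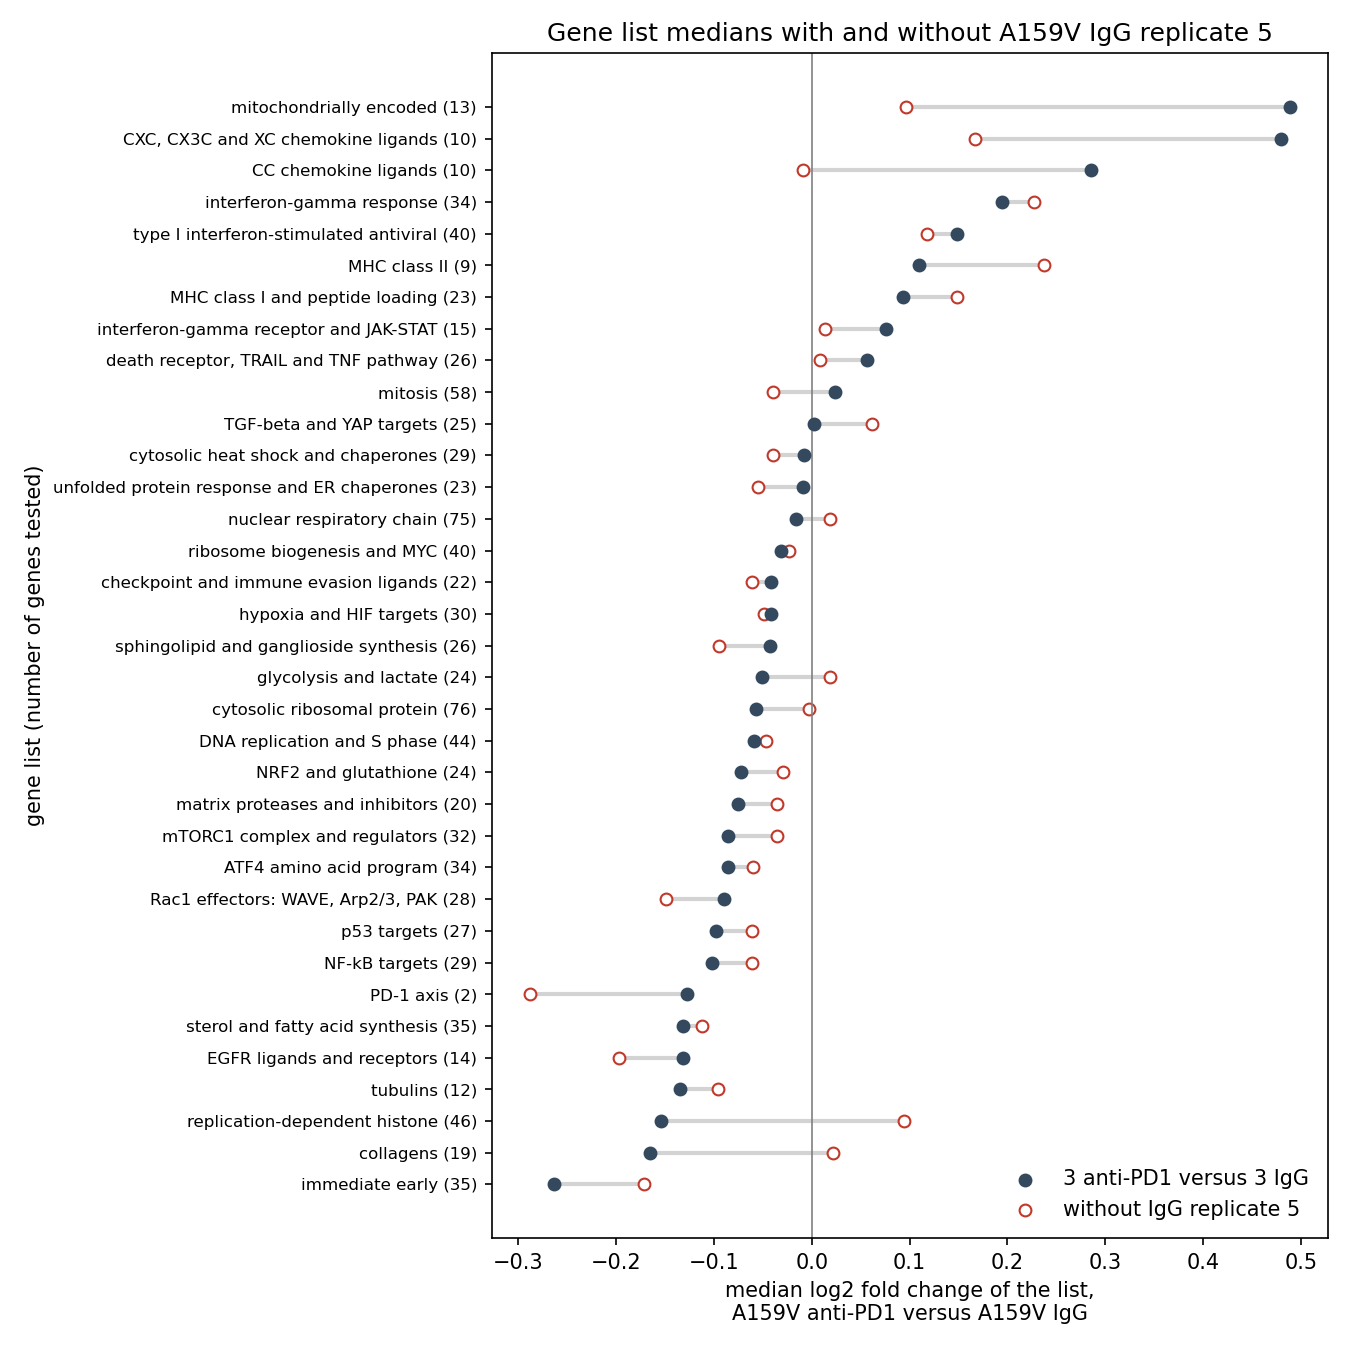
Median log2 fold change (horizontal axis) of the tested genes of each list in A159V cells, with all 3 IgG samples (filled circles) and without IgG replicate 5 (open circles), and in parentheses the number of genes tested with all samples. The CC chemokine, checkpoint, NF-κB, histone and p53 lists had 1 to 3 more genes without replicate 5. The interferon-γ response list lies at 0.19 and 0.23 and the immediate early list at −0.26 and −0.17, and the mitochondrially encoded list moves from 0.49 to 0.10.

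The immediate early list holds genes that growth factor and stress signals induce within minutes. Its median deviation was −0.12, −0.34 and 0.04 in the anti-PD1 samples and 0.01, 0.19 and 0.31 in the IgG samples, and anti-PD1 replicate 3 exceeded IgG replicate 1. Of 35 genes, 2 were higher and 33 lower, 0 were higher and 5 lower at an unadjusted p under 0.05, and 7 lay wholly below the IgG values. The median was −0.26 with replicate 5, −0.36 without IgG replicate 1 and −0.17 without replicate 5, where 9 were higher, 26 lower and 0 passed the unadjusted limit in either direction. edgeR called 0 of these genes at the adjusted limit in both fits.

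Ier3 measured 1139, 876 and 998 CPM with anti-PD1 and 1343, 1273 and 1358 CPM with IgG. All 3 anti-PD1 values were below the IgG values, and the fold change was −0.40 (−0.88 to 0.08) with replicate 5 and −0.35 (−0.89 to 0.19) without it. Klf4, a transcription factor gene, measured 49.3, 41.7 and 45.9 and 48.4, 79.1 and 77.2 CPM, with IgG replicate 1 inside the anti-PD1 range and fold changes of −0.58 (−1.05 to −0.11) and −0.45 (−0.96 to 0.06). Dusp4, which encodes a phosphatase of MAP kinases, measured 113, 107 and 102 and 119, 153 and 173 CPM. Its groups did not overlap, and the fold change was −0.47 (−0.89 to −0.05) with replicate 5 and −0.31 (−0.75 to 0.13) without it. Atf3 and Btg2 were at −0.59 and −0.64, and at −0.27 and −0.43 when replicate 5, the highest sample for both, was left out. The EGFR ligand and receptor list, which shares Errfi1 and Dusp6 with the immediate early list, had 4 of 14 genes higher and 10 lower, 3 wholly below, and medians of −0.13 and −0.20 (−0.20 without IgG replicate 5 to −0.08 without IgG replicate 2).

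Lists of stress and biosynthesis programs came next. The ATF4 amino acid list had 3 of 34 genes higher and 31 lower, 2 lower at the unadjusted limit (0 without replicate 5), 4 wholly below, and medians of −0.09 with and −0.06 without replicate 5 (−0.13 without IgG replicate 2 to −0.06 without IgG replicate 5). Phgdh, the first enzyme of serine synthesis, measured 480.3, 479 and 499.7 CPM with anti-PD1 and 580.4, 578 and 666 CPM with IgG. All anti-PD1 values were lower, and the fold change was −0.32 (−0.64 to −0.01) with replicate 5 and −0.22 (−0.55 to 0.11) without it. In the sterol and fatty acid synthesis list, 7 of 35 were higher and 28 lower, 1 was lower at the unadjusted limit (0 without replicate 5), 3 lay wholly below, and the medians were −0.13 and −0.11 (−0.18 without anti-PD1 replicate 3 to −0.10 without anti-PD1 replicate 2). Dhcr7, an enzyme of cholesterol synthesis, measured 66.5, 63.9 and 73.2 and 80.3, 83.5 and 91.2 CPM. Its groups did not overlap, with a fold change of −0.33 (−0.58 to −0.07), or −0.24 without replicate 5.

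The unfolded protein response list had 10 of 23 genes higher, medians of −0.01 and −0.05 (−0.05 without IgG replicate 5 to 0.04 without IgG replicate 1), and 4 genes wholly below, among them Herpud1 at −0.28 and Sec61a1 at −0.27, or −0.23 and −0.27 without replicate 5. Cytosolic heat shock genes split into 14 higher and 15 lower, with medians of −0.01 and −0.04 (−0.04 without IgG replicate 5 to 0.05 without IgG replicate 1). In the NRF2 and glutathione list 7 of 24 were higher, with medians of −0.07 and −0.03 (−0.11 without anti-PD1 replicate 3 to −0.02 without anti-PD1 replicate 2), and Gsta4 at 0.40 (0.35 without replicate 5) was the 1 member at the unadjusted limit, with 0 there without replicate 5. The NF-κB target list had 11 of 29 higher and medians of −0.10 and, over the same genes, −0.07 without replicate 5 (−0.15 without IgG replicate 1 to −0.05 without anti-PD1 replicate 2). Without replicate 5, 2 of 30 members were higher and 0 lower at the unadjusted limit, where 5.63% and 1.22% of all genes were. With it, the 2 under that limit were Birc2 at 28.4, 33 and 27.4 CPM with anti-PD1 and 24.4, 23.4 and 19.2 CPM with IgG, and Tnfaip3 at 48.1, 34.5 and 39.2 and 42.7, 76.8 and 65.9 CPM. Birc2 was wholly higher, with a fold change of 0.41 (0.11 to 0.70) and 0.34 without replicate 5, and Tnfaip3, which overlapped through IgG replicate 1, had −0.61 (−1.13 to −0.08) and −0.53. The death receptor, TRAIL and TNF list had 15 of 26 higher and medians of 0.06 and 0.01 (0.01 without IgG replicate 5 to 0.10 without IgG replicate 2), with Fas, a death receptor gene, at 4.52, 3.72 and 4.28 and 3.17, 3.17 and 1.33 CPM. Fas did not overlap, and its fold change was 0.70 (0.06 to 1.35) with replicate 5, its lowest sample, and 0.43 without it. The p53 target list had 9 of 27 higher and medians of −0.10 and, over the same genes, −0.07 without replicate 5 (−0.13 without anti-PD1 replicate 3 to −0.03 without IgG replicate 2).

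In the glycolysis and lactate list, 5 of 24 genes were higher and 19 lower, none passed the unadjusted limit, and the median of −0.05 became 0.02 without replicate 5 (−0.10 without anti-PD1 replicate 3 to 0.02 without IgG replicate 5), with 1 higher at that limit and 14 higher and 10 lower. Slc2a1, the main glucose transporter gene, measured 279.9, 320.2 and 286 CPM with anti-PD1 and 339.5, 312 and 374 CPM with IgG. The groups overlapped, and the fold change was −0.21 (−0.51 to 0.09) with replicate 5 and −0.11 without it. Hk2 was at −0.02 (−0.43 to 0.39) and 0.10, Slc16a3, a lactate exporter gene, at −0.04 (−0.35 to 0.27) and 0.07, and Aldoc at 0.14 (−0.26 to 0.54) and 0.30. Hif1a measured 173, 163 and 188 and 205, 204 and 81 CPM, with replicate 5 below every other sample and fold changes of 0.10 (−0.49 to 0.69) and −0.19. The hypoxia list had 13 of 30 higher and medians of −0.04 and −0.05 (−0.07 without anti-PD1 replicate 2 to 0.01 without IgG replicate 1). The mTORC1 list had 11 of 32 higher and medians of −0.09 and −0.04 (−0.09 without IgG replicate 2 to −0.04 without IgG replicate 5), and the sphingolipid and ganglioside list had 9 of 26 higher and medians of −0.04 and −0.09 (−0.09 without IgG replicate 5 to 0.000205 without anti-PD1 replicate 2).

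The cell cycle was covered by 4 lists. The DNA replication list had 13 of 44 genes higher and 31 lower, none at the unadjusted limit, 6 wholly below and 1 wholly above, and medians of −0.06 with and −0.05 without replicate 5 (−0.08 without anti-PD1 replicate 3 to −0.03 without anti-PD1 replicate 2), where 1 was higher and 1 lower at that limit. Cdc6 measured 56, 50.0 and 56.7 and 66.6, 62.6 and 59.5 CPM, all anti-PD1 values lower, with −0.21 (−0.46 to 0.03) and −0.22. The mitosis list had 33 of 58 higher with replicate 5, none at the unadjusted limit, and 17 higher and 41 lower without it, and its median went from 0.02 to −0.04 (−0.04 without IgG replicate 5 to 0.09 without IgG replicate 1). Replication-dependent histone genes, most of whose transcripts lack a poly(A) tail, had 16 of 46 higher and a median of −0.15. Over the same 46 genes, 31 were higher with a median of 0.09 without IgG replicate 5, and the median was 0.10 without anti-PD1 replicate 1 and −0.40 without anti-PD1 replicate 2. The study's methods describe poly(A) selection, which bears on these values. The tubulin list had 2 of 12 genes higher and medians of −0.14 and −0.10 (−0.19 without anti-PD1 replicate 3 to −0.07 without anti-PD1 replicate 2).

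Protein synthesis and the nuclear part of the respiratory chain were covered by 3 lists. The cytosolic ribosomal protein list had 20 of 76 genes higher and 56 lower with a median of −0.06, and 35 higher and 41 lower with a median of −0.00321 without replicate 5 (−0.12 without anti-PD1 replicate 3 to −0.00321 without IgG replicate 5). The ribosome biogenesis list had 17 of 40 higher and medians of −0.03 and −0.02 (−0.07 without IgG replicate 2 to 0.02 without anti-PD1 replicate 2). The nuclear respiratory chain list had 36 of 75 higher and medians of −0.02 and 0.02 (−0.06 without anti-PD1 replicate 3 to 0.03 without anti-PD1 replicate 1), with Ndufb2, whose exons overlap Braf, as the 1 gene at the unadjusted limit (0.51, and 0.47 without replicate 5).

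The mitochondrially encoded list had 12 of 13 genes higher, 4 at the unadjusted limit (2 without replicate 5), and a median of 0.49 that was 0.80 and 0.78 without IgG replicates 1 and 2 and became 0.10 without replicate 5, whose deviation of −1.59 was the lowest of the 6 samples. mt-Co1 (chromosome M, 5328 to 6872), a subunit gene of complex IV, measured 12118, 13355 and 8290.0 CPM with anti-PD1 and 7648, 7605 and 4125 CPM with IgG. All anti-PD1 values were above the IgG values, and the fold change was 0.80 (0.27 to 1.33) with replicate 5 and 0.59 (0.12 to 1.07) without it. mt-Cytb followed it at 0.71 and 0.49, whereas mt-Co3 went from 0.32 to −0.13.

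For the effectors of Rac1 (the WAVE and Arp2/3 complexes, PAK kinases and related genes), 5 of 28 genes were higher and 23 lower, none passed the unadjusted limit, 5 lay wholly below the IgG values, and the medians were −0.09 with and −0.15 without replicate 5 (−0.15 without IgG replicate 5 to −0.08 without IgG replicate 1). Against IgG replicates 1 and 2 alone, 18 of the 28 lay wholly below, where 2706 of all 14340 genes did. Other lists also had many such genes, 12 of 23 for the unfolded protein response, 25 of 58 for mitosis and 16 of 44 for DNA replication. The cytosolic ribosomal protein list had 1 of 76. The per-sample deviations were −0.04, −0.11 and −0.00 with anti-PD1 and 0.12, 0.17 and −0.07 with IgG. The anti-PD1 samples lay below IgG replicates 1 and 2 and on both sides of replicate 5. Pak4 measured 38.1, 36.5 and 43.3 CPM with anti-PD1 and 44.8, 44.9 and 49 CPM with IgG, wholly separated, with −0.23 (−0.50 to 0.03) and −0.16, and Cyfip2, a WAVE complex gene, measured 9.59, 12 and 11.9 and 13.3, 16.1 and 16.7 CPM, also separated, with −0.47 (−0.95 to 0.02) and −0.37.

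Matrix genes lay on both sides of 0. The collagen list had 8 of 19 genes higher, 2 higher and 0 lower at the unadjusted limit (0 in either direction without replicate 5), 1 wholly above and 5 wholly below, and a median of −0.17 that became 0.02 without replicate 5 (−0.23 without IgG replicate 1 to 0.02 without IgG replicate 5). Col1a1 measured 39.4, 19.6 and 49.8 CPM with anti-PD1 and 11.8, 22.3 and 19.1 CPM with IgG, with anti-PD1 replicate 2 inside the IgG range, a fold change of 1.03 (0.03 to 2.03), and 1.11 (−0.08 to 2.30) without replicate 5. Col1a2, at 30.6, 14.8 and 35.7 and 8.83, 14.3 and 9.83 CPM, and the fibroblast marker Pdpn were likewise highest in anti-PD1 replicates 1 and 3, and the cells that these transcripts came from were not determined. The basement membrane genes Col4a1 and Col4a2, at −0.47 and −0.41 (−0.34 and −0.26 without replicate 5), were wholly below. The protease and inhibitor list had 9 of 20 higher and medians of −0.08 and −0.04 (−0.09 without anti-PD1 replicate 3 to −0.04 without IgG replicate 5), with Plat, the tissue plasminogen activator gene, at 13.9, 18.9 and 15.7 CPM with anti-PD1 and 22.3, 21.1 and 25.9 CPM with IgG. Plat was wholly lower, with −0.51 (−0.93 to −0.09) and −0.39. The TGF-β and YAP target list had 13 of 25 higher and medians of 0.00 and 0.06 (−0.07 without anti-PD1 replicate 3 to 0.06 without IgG replicate 5).

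Gene types were compared after the values were seen. The 115 small nucleolar RNA genes tested had median deviations of 0.30, 0.64 and 0.05 in the anti-PD1 samples and −0.38, −0.40 and 0.20 in the IgG samples. IgG replicate 5 lay inside the anti-PD1 range and the other IgG samples lay below it. With anti-PD1, 100 of them were higher and 15 lower, 34 were higher and 0 lower at an unadjusted p under 0.05, and the median was 0.65 with replicate 5, 0.91 without it and 0.52 after removal of the GC trend. Of these genes, 106 lie inside a longer gene, and the 65 genes that hold them had a median of 0.05, with 2 higher and 1 lower at that limit. Snord83b, at 2.56, 3.45 and 2.00 CPM and 0.952, 0.432 and 2.07 CPM, overlapped through replicate 5, with 1.22 (0.26 to 2.18) and 1.99. The 883 long noncoding RNA genes had 649 higher, 70 higher and 1 lower at the limit (155 and 3 without replicate 5), and medians of 0.23 with and 0.46 without replicate 5. The 12954 protein-coding genes had 238 higher and 153 lower at the limit, 586 and 169 without replicate 5, and a median of −0.01 in both cases. Reads from a surrounding gene can be counted toward genes inside it, and their part in these values, like that of poly(A) selection, was not tested.

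Base composition was also set against the treatment effect. In the fifth of genes with the least GC, 161 were higher and 6 lower with anti-PD1 at an unadjusted p under 0.05, and in the fifth with the most GC 32 were higher and 50 lower. Across 14216 genes, which are not independent replicates, the r between log2 fold change and GC content was −0.202 with replicate 5 and 0.0936 without it. After removal of each sample's GC trend, an alternative added after the data were seen, edgeR called 0 genes and had 346 higher and 243 lower at the unadjusted limit.

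The genes that passed the test in WT cells were looked up in A159V cells, since the 2 comparisons share no sample. WT cells had 90 genes past edgeR's adjusted limit (0.628%), or 25 to 601 when 1 A159V sample was left out of the fit. The count was 771 with no filter, 4650 under the replicate block and 1441 with DESeq2 on 12 samples. The replicate block in effect leaves out A159V IgG replicate 5 and WT IgG replicate 4, whose replicate numbers no other sample has. Of the 90, the 71 that were higher in WT cells had a median log2 fold change in A159V cells of −0.19 with replicate 5 and −0.24 without it. In A159V cells 22 of the 71 were higher and 48 lower, 1 higher and 3 lower at the unadjusted limit (1 and 1 without replicate 5), and the 19 genes lower in WT had a median of 0.01 and 0.05. The difference between the responses passed edgeR's interaction test at 1 gene (0.00697%), Errfi1 (chromosome 4, 150853919 to 150868892), an inhibitor of EGFR signalling, and at 0 genes when any of the 3 anti-PD1 samples or IgG replicate 1 was left out. Other choices called more genes, 294 with DESeq2 on 12 samples, 37 with no filter and 2760 under the replicate block. In A159V cells Errfi1 measured 44.6, 47.4 and 47.5 CPM with anti-PD1 and 52.3, 58 and 48.6 CPM with IgG. All anti-PD1 values were below the IgG values, and the A159V fold change was −0.19 (−0.45 to 0.07) with replicate 5 and −0.22 (−0.47 to 0.04) without it. Nr4a3, Prex1 and Lcp1, 3 of the 5 genes with the smallest p among those higher in WT cells, had A159V values of −0.42 (−1.11 to 0.28), −0.01 (−0.47 to 0.45) and 0.22 (−0.25 to 0.69), and −0.47, 0.07 and 0.14 without replicate 5. Tubb3 and Gdf15, lower in WT cells, had 0.08 (−0.22 to 0.37) and −0.04 (−0.41 to 0.32), and 0.11 and 0.15 without it.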

How the data were processed

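RNA of MC38 tumor cells was sequenced as paired reads in 12 samples, 3 for each of 4 groups of genotype and treatment. The authors aligned the reads to mm10 with STAR, converted them with Samtools and counted them per gene with summarizeOverlaps, and deposited raw counts. The versions, counting mode, strand setting and annotation release were not stated. edgeR 4.0.16 in R 4.3.3 filtered genes (filterByExpr), scaled libraries (TMM) and tested treatment by quasi-likelihood in 1 fit of 12 samples (8 residual degrees of freedom), with p adjusted by Benjamini-Hochberg over all genes tested. Intervals of 95% come from its standard errors and the t distribution. Log2 CPM carry a prior count of 2. DESeq2 1.42.0, limma voom 3.58.1, other scalings, other filters, a replicate block, the 6 A159V samples alone and leaving out each A159V sample were alternatives. Removal of each sample's GC trend (lowess, span 0.3) was added after the data were seen. Figures were drawn with matplotlib 3.10.9 in Python 3.11.15, where pandas 2.3.3 and numpy 2.4.6 also prepared the input tables.

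The samples compared and the gene lists were chosen with earlier results on these data known. Named genes are Rac1, the PD-1 axis, the 12 genes per direction with the smallest p at a mean of at least 1 CPM, 8 per direction without IgG replicate 5, the 12 per direction in which that sample departed most (mean of at least 5 CPM, outside the range of the other 5), in each list the member with the most counts per exon length and up to 4 with the smallest p, chemokines, glycolysis genes and Ifngr1 that the study names, 5 per direction called in WT cells, and genes called in the interaction. Of these, the text prints a selection. The gene types and GC content were chosen after their values were seen.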

Additional observations from a re-analysis of the deposited data

Results flagged for a closer look

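Errfi1 deserves a second look because its response to anti-PD1 differed between A159V and WT cells in the interaction test. Its log2 fold change in A159V cells minus that in WT cells was −1.38, with an adjusted p of 0.0267 by edgeR on 12 samples. The call depended on the samples and the scaling. In the same interaction, 294 genes were called with DESeq2, 37 with no filter and 2760 under the replicate block. That block in effect leaves out A159V IgG replicate 5 and WT IgG replicate 4. Without any 1 of the 3 A159V anti-PD1 samples or A159V IgG replicate 1, edgeR called 0 genes and the smallest adjusted p in the interaction was 0.126 to 0.208, and with upper-quartile scaling it was 0.0503.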

How the results depend on the processing

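Of 3874 log2 fold changes of named genes under the alternatives, 3728 kept their direction and their side of the threshold, 144 changed sign in genes not called by either fit, and 2 passed the threshold with DESeq2 where edgeR had not called them. Of 560 list medians, 541 moved by less than the spread between replicates. The cause was not tested for any value below. Replicate numbers belong to different mice, so a replicate block pairs samples that share no mouse. Numbers 5 and 4 occur only in A159V IgG replicate 5 and WT IgG replicate 4. The block fits these samples exactly, so they do not bear on its fold changes or its spread. Its counts and medians therefore do not separate blocking from the loss of these samples. Fits of the 6 A159V samples alone give no value for the interaction. With 3 samples per group and 1 IgG sample far from its mates, small effects can go unseen, and at under 1 CPM few intervals lay within a 2-fold change.

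With DESeq2, the treatment called 2 genes on 12 samples and 1 gene on 6, and the interaction called 294 genes in place of 1. Upper-quartile scaling gave 0 interaction genes and no filter gave 37, with a CC chemokine median of 0.14. Under the replicate block, 1343 genes in place of 521 had an unadjusted p under 0.05, 0 passed the adjusted limit for treatment and 2760 for the interaction, and the medians were −0.00984 (interferon-γ receptor and JAK-STAT), −0.0363 (CC chemokines), −0.0197 (death receptor), 0.0260 (glycolysis) and 0.0477 (collagens). The replicate block also gave 0.0916 for the mitochondrially encoded list, 0.0666 for CXC chemokines, 0.38 for MHC class II, 0.0504 for histones and −0.0750 for mitosis. A filter of 10 counts in every sample gave 0.33 for the PD-1 axis, of which Cd274 alone passed, −0.17 for matrix proteases and 0.0744 for CXC chemokines. Removal of the GC trend gave 0.0741 for CC chemokines and −0.0289 for the death receptor list, and 934 genes in place of 1705 far from the mates in IgG replicate 5. A prior count of 0.5 gave a mean r of 0.969 for IgG replicate 5 and 0.985 among the others, in place of 0.974 and 0.989.

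Leaving out 1 sample at a time gave 0 genes called for treatment, 326 to 1008 at the unadjusted limit and 0 to 1 in the interaction. The medians ran from 0.0956 to 0.29 for the interferon-γ response, −0.0341 to 0.33 for CC chemokines (12 genes in place of 10, or 0.17 to 0.43 over the same 10), −0.13 to −0.0272 for p53 targets, −0.0918 to −0.0356 for mTORC1 and −0.23 to 0.0219 for collagens. Without IgG replicate 5, 4716 genes in place of 1579 had groups that did not overlap, and 2 IgG samples in place of 3 raise this count by construction. Other medians with 1 sample left out ran from 0.10 to 0.21 for type I interferon, 0.0338 to 0.15 for MHC class I, 0.0595 to 0.29 for MHC class II, 0.17 to 0.52 for CXC chemokines and 0.0962 to 0.80 for the mitochondrially encoded list. They ran from −0.36 to −0.17 for immediate early genes, −0.20 to −0.0827 for EGFR, −0.13 to −0.0600 for ATF4, −0.18 to −0.0957 for sterols and −0.15 to −0.0760 for Rac1 effectors, and from −0.40 to 0.0972 for histones, −0.0401 to 0.0876 for mitosis, −0.0779 to −0.0254 for DNA replication, −0.15 to −0.0554 for NF-κB (up to 30 genes in place of 29, or −0.15 to −0.0463 over the same 29), 0.00809 to 0.0994 for death receptors and −0.0951 to 0.0186 for glycolysis. The range was −0.29 to 0.0279 for the PD-1 axis and −0.0612 to 0.0523 for checkpoint ligands (23 to 25 genes in place of 22, or −0.0927 to 0.0148 over the same 22). It was −0.0544 to 0.0424 for unfolded protein response, −0.0709 to 0.00933 for hypoxia, −0.0944 to 0.000205 for sphingolipids, −0.12 to −0.00321 for ribosomal proteins and −0.0655 to 0.0168 for ribosome biogenesis.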
